A study of Felis catus with 3 samples.

Results

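Expression of 5 interferon-stimulated antiviral genes, OAS1, OAS2, OAS3, DDX58 and RSAD2, was examined in untreated adipose-derived mesenchymal stem cells (ASCs) of the cat. The genes were taken by symbol and matched to Ensembl identifiers through the gene table of the study, and all 5 were found among the 21529 genes in the files. Expression was measured by strand-specific sequencing of poly-adenylated RNA in 3 primary feline ASC cultures, named Gray Boy, Luna and SPF2 after the cats that gave the fat. Each line had 1 library, made from 200 ng of total RNA at passages 3 to 4. All cultures were noninduced, in MEMα medium with 10% fetal bovine serum, and the labels give no age or breed for any cat. The study took fat from specific pathogen-free (SPF) and client-owned cats and describes every cat as negative for the feline immunodeficiency and leukemia viruses. Beyond the name SPF2, the labels do not say which kind of cat gave which line, so the lines were not grouped by it. Every line was in the same condition, and none is described as treated with interferon or infected for an experiment. Whether the cultures carried other viruses, such as feline foamy virus, is not given for these lines in the sources used here. The values at rest could therefore not be set against an induced level. The unit was FPKM, in which the sequenced fragments of a gene are divided by the length of its transcripts and by the size of the library.

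Type I interferons are secreted by cells that detect a virus, and they act on the same cell and its neighbors through a receptor coupled to the kinases JAK1 and TYK2. The signal switches on a large set of antiviral genes that most cells keep low in the absence of infection. DDX58 encodes RIG-I, a cytoplasmic sensor of viral RNA that leads to interferon production. OAS1, OAS2 and OAS3 are oligoadenylate synthetases, which bind double-stranded RNA and make a short nucleotide messenger that leads to the degradation of RNA. RSAD2 encodes viperin, an enzyme of the endoplasmic reticulum and lipid droplets that makes a chain-terminating nucleotide and restricts several viruses. Mesenchymal stem cells are known to keep some interferon-stimulated genes on without stimulation.

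The libraries gave values above 0 for 14151 to 14356 genes, and the FPKM values summed to 621797 to 688297 per line. The files hold no counts, so the number of fragments behind a value is unknown. Endoglin (ENG), the only stromal marker of 9 with an identifier, was at 72.5 to 117 FPKM. Of 6 leukocyte markers, 4 had an identifier. CD2 was listed at 0 FPKM in every line, ITGB2 and CD14 were each at 0 in 1 line, and the highest value was 1.03 FPKM, for CORO1A in Gray Boy. The endothelial marker TEK, 1 of 4 with an identifier, was at 0.0129 to 0.0595 FPKM.

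All 5 antiviral genes were above 0 FPKM in every line, and all 5 were highest in Gray Boy. Of the 13347 genes above 0 FPKM in every line, 30.5% were highest in Gray Boy, 40.5% in Luna and 29.0% in SPF2. When each library was brought to the same total of 1000000, the share highest in Gray Boy was 40.9%, and all 5 antiviral genes were still highest there. With 1 library per line the error of a single line is not known, so the differences between lines could not be tested. The summed level of the 4 leukocyte markers was also highest in Gray Boy, at 1.96 FPKM against 0.598 FPKM in Luna and 0.909 FPKM in SPF2. The part of such cells in the antiviral values was not tested. In bulk RNA, fewer cells that express a gene and less RNA per cell cannot be told apart.

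**Figure D1:**
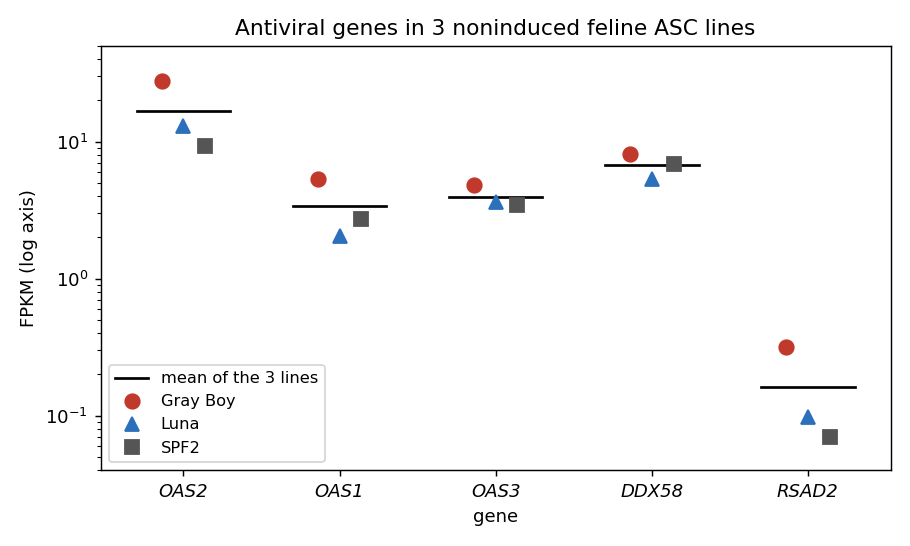
FPKM of the 5 antiviral genes (log axis) in the Gray Boy, Luna and SPF2 lines, 1 point per library, with a bar at the mean of the 3 lines. The Gray Boy point is the highest for every gene, OAS2 has the highest level in every line, and RSAD2 lies below 1 FPKM throughout.

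The 3 oligoadenylate synthetase genes lie side by side. The study's gene table places OAS1 (ENSFCAG00000000318) on chromosome D3 from 10733159 to 10745948. OAS3 (ENSFCAG00000000320) follows from 10752195 to 10770042, and OAS2 (ENSFCAG00000000322) from 10776422 to 10794769. Gaps of 6246 and 6379 bases separate the genes, and the whole cluster spans 61611 bases. The table itself names no genome build, and the study's methods give ICGSC Felis Catus 8.0. RefSeq lists the genes in the same order, OAS1, OAS3, OAS2, with no other gene between them, on the cat assembly F.catus_Fca126_mat1.0.

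OAS2 had 27.8 FPKM in Gray Boy, 13.1 FPKM in Luna and 9.25 FPKM in SPF2. Its mean was 16.7 ± 9.77 FPKM (SD, n = 3 lines). Gray Boy stood above both other lines, by 2.11 times over Luna and 3.00 times over SPF2, and Luna was 1.42 times above SPF2. Of the 4559 genes with a mean within 2-fold of that of OAS2, 3.97% differed between their highest and lowest lines by 3.00 times or more. OAS2 was higher than 77.3% of the genes above 0 FPKM in Gray Boy, 59.2% in Luna and 51.5% in SPF2.

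OAS1, the shortest of the synthetases in most mammals, had 5.31 FPKM in Gray Boy, 2.05 FPKM in Luna and 2.74 FPKM in SPF2. Gray Boy was again apart, 2.58 times above Luna and 1.94 times above SPF2. Here the lower lines were in the opposite order from OAS2, with Luna at 0.749 times the level of SPF2. The mean was 3.37 ± 1.72 FPKM (SD, n = 3 lines). Such a difference between the extreme lines, 2.58 times or more, was found for 14.3% of the 2624 genes of like level.

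OAS3, the largest synthetase, had 4.84 FPKM in Gray Boy, 3.62 FPKM in Luna and 3.43 FPKM in SPF2. Its mean was 3.96 ± 0.765 FPKM (SD, n = 3 lines). Gray Boy was 1.34 times above Luna and 1.41 times above SPF2, and Luna and SPF2 were within 1.06 times of each other. This spread was ordinary for its level, since 50.5% of the 2940 genes of like level had a ratio of 1.41 or more. OAS3 therefore kept the Gray Boy line on top but did not share the size of the OAS1 and OAS2 differences.

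Added together, the synthetases reached 37.9 FPKM in Gray Boy, 18.8 FPKM in Luna and 15.4 FPKM in SPF2. OAS2 made up most of this sum in every line, with 73.2% in Gray Boy, 69.8% in Luna and 60.0% in SPF2. The level of OAS2 was 3.37 to 6.39 times that of OAS1 and 2.70 to 5.74 times that of OAS3. OAS1 and OAS3 were not ordered by these libraries. The ratio of OAS1 to OAS3 was 1.10 in Gray Boy, 0.567 in Luna and 0.801 in SPF2.

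Values were also read for other genes near the cluster. RASAL1, a Ras GTPase-activating protein gene and the nearest gene beyond OAS2 in the table, had 0.117 FPKM in Gray Boy, 0.213 FPKM in Luna and 0.154 FPKM in SPF2. RITA1, a regulator of Notch signaling, had 25.4, 26.6 and 24.2 FPKM in the same order of lines, and IQCD had 0.451, 0.656 and 0.792 FPKM. Of these 3 genes, the only others of the available part of the table within 200000 bases of OAS1, 0 were highest in Gray Boy, beside 30.5% of all genes above 0 FPKM in every line. With only 3 genes, a count of 0 cannot be told apart from that share.

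DDX58 (ENSFCAG00000001294) had 8.11 FPKM in Gray Boy, 5.31 FPKM in Luna and 6.93 FPKM in SPF2. The mean was 6.78 ± 1.41 FPKM (SD, n = 3 lines), and its level was above 60.1 to 65.6% of all genes in the files, many of which were at 0. Counting only the genes above 0 FPKM in each line, DDX58 was above 48.4% of them in Gray Boy, 39.3% in Luna and 45.0% in SPF2. Gray Boy was 1.53 times above Luna and 1.17 times above SPF2. A ratio of 1.53 or more was found for 30.4% of the 3924 genes of like level. In the gene table DDX58 is listed on chromosome D4 from 57070572 to 57149173, a locus that it shares base for base with ACO1, the cytoplasmic aconitase that also binds iron-responsive elements. ACO1 had 30.2, 25.0 and 32.8 FPKM in Gray Boy, Luna and SPF2, several times more than DDX58 and highest in SPF2. Whether reads were split between the genes of this locus was not tested. NDUFB6, also within 200000 bases of DDX58, had 68.2, 81.6 and 59.5 FPKM in Gray Boy, Luna and SPF2, and was highest in Luna.

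RSAD2 (ENSFCAG00000000708, chromosome A3 from 137737237 to 137753371) was close to silent, with 0.315 FPKM in Gray Boy, 0.0982 FPKM in Luna and 0.0697 FPKM in SPF2. Its mean was 0.161 ± 0.134 FPKM (SD, n = 3 lines), and without Gray Boy it was 0.084 FPKM. The ratio of Gray Boy to SPF2 was 4.52 and that of Gray Boy to Luna 3.21, but 28.0% of the 858 genes of like level also spanned 4.52 times or more. As deposited, these ratios were the widest among the 5 genes. With 0.1 FPKM added to every value the RSAD2 ratio was 2.45, below OAS2 at 2.98 and OAS1 at 2.51, and with 1 FPKM added it was 1.23, the narrowest and under 2-fold. RNF144A, a ubiquitin ligase gene within 200000 bases of RSAD2, had 20.5 FPKM in Gray Boy, 19.6 FPKM in Luna and 15.6 FPKM in SPF2. It had the same order of lines as RSAD2, an order found for 11.9% of all genes above 0 FPKM in every line.

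The depth behind the RSAD2 values could be read in part from the files, because the FPKM of genes with few fragments takes discrete steps. Over genes under 0.15 FPKM, 1 fragment was worth 0.911 times as much in Gray Boy as in Luna, 1.28 times as much in Gray Boy as in SPF2 and 1.40 times as much in Luna as in SPF2. On these steps the RSAD2 values stood in the ratio of 7 to 2 to 2 for Gray Boy, Luna and SPF2, within 1.24%. These are the smallest whole numbers within 2%, and multiples of them would give the same values. If they were the fragments themselves, the difference between lines in RSAD2 would rest on very few reads, with equal fragment numbers in Luna and SPF2. The step estimates against SPF2 were less sharp, with 30.4% and 23.4% of low genes on them, compared with 59.1% for Gray Boy and Luna.

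In order of level, OAS2 came first and DDX58 second in every line, and RSAD2 was last by a wide margin. OAS2 exceeded DDX58 by 3.43 times in Gray Boy, 2.47 times in Luna and only 1.34 times in SPF2. DDX58 exceeded OAS1 by 1.53 to 2.58 times. The ranges of OAS2 (9.25 to 27.8 FPKM) and DDX58 (5.31 to 8.11 FPKM) over the lines did not overlap, whereas OAS1 and OAS3 changed places between lines.

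Gray Boy was 2-fold or more above Luna for 3 of the 5 genes (OAS1, OAS2 and RSAD2), against 8.04% of all genes above 0 FPKM in every line. It was 2-fold or more above SPF2 for 2 of the 5 (OAS2 and RSAD2), against 5.80% of all genes. In the pair of Luna and SPF2, 0 of the 5 differed 2-fold. Of all genes, 7.79% were 2-fold or more higher in Luna and 7.55% in SPF2, and with 5 genes a count of 0 cannot be told apart from these shares. The median log2 ratio of the 5 genes was 1.08 for Gray Boy over Luna and 0.95 for Gray Boy over SPF2, where the medians over all genes were -0.02 and 0.00. Both ratios use the Gray Boy library, so they are not separate measurements. For Luna over SPF2 the median log2 ratio was 0.08, with OAS2, OAS3 and RSAD2 higher in Luna and OAS1 and DDX58 higher in SPF2. The 5 genes thus had the highest line in common but not the order of the other two. The order Gray Boy, Luna, SPF2 held for 3 of them, compared with 11.9% of all genes, and Gray Boy, SPF2, Luna held for 2, compared with 18.6% of all genes.

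**Figure D2:**
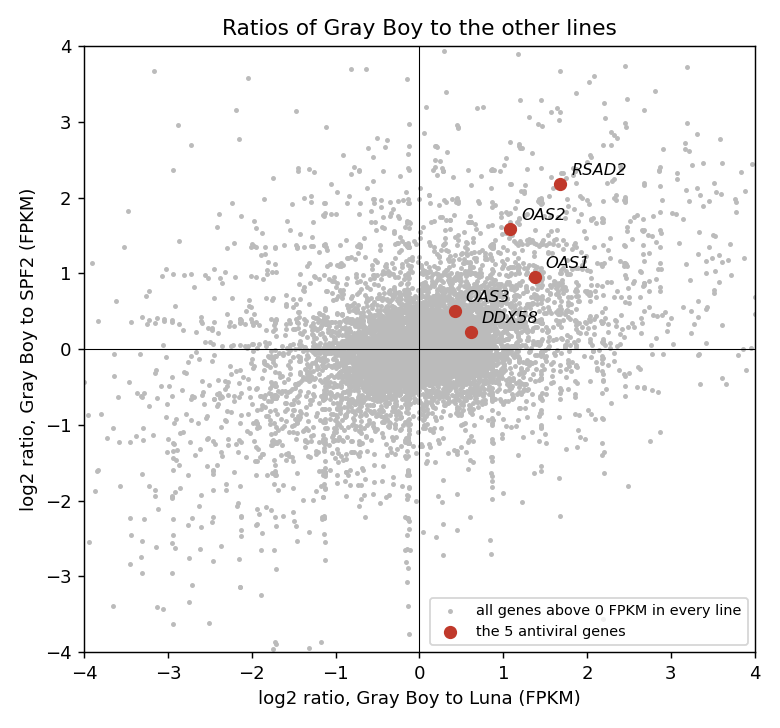
Log2 ratio of FPKM in Gray Boy to Luna (horizontal) and to SPF2 (vertical) for the 13347 genes above 0 FPKM in every line (grey, 87 of them outside the axes) and the 5 antiviral genes (red). All 5 lie in the upper right, from DDX58 at 0.61 and 0.23 and OAS3 at 0.42 and 0.50, inside the bulk of the genes, to RSAD2 at 1.68 and 2.18; both axes use the same Gray Boy library.

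The other genes of the interferon system were taken from lists of 104 genes, of which 16 had a symbol in the available part of the gene table. Of these 16, 10 were highest in Gray Boy, 2 in Luna and 2 in SPF2, and 2 were listed at 0 FPKM in every line. Among the 14 above 0 FPKM in every line, the 10 highest in Gray Boy stand beside 30.5% of all such genes, or 40.9% with libraries set to the same total. With quantile scaling the count was 9. Luna was the lowest line for 9 of the 14. The median log2 ratio of the 14 genes was 0.50 for Gray Boy over Luna, 0.25 for Gray Boy over SPF2 and -0.29 for Luna over SPF2.

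Among ligands, only interferon kappa (IFNK) had an identifier, and it was listed at 0 FPKM in all lines. In the receptor and signaling list, JAK1, the kinase shared by all interferon receptors, had 88.1 FPKM in Gray Boy, 50.9 FPKM in Luna and 60.4 FPKM in SPF2. JAK1 was thus far above the antiviral genes in level and again highest in Gray Boy, by 1.73 times over Luna. STAT3, a transcription factor downstream of interleukin-6 and other cytokines, had 40.5, 34.6 and 32.0 FPKM in Gray Boy, Luna and SPF2. SOCS5, of a family of inhibitors of cytokine signaling, ran the other way, with 94.5 FPKM in Gray Boy, 134 FPKM in Luna and 107 FPKM in SPF2.

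In the sensing list, DHX58 encodes LGP2, a relative of RIG-I that lacks its signaling domain. DHX58 had 2.11 FPKM in Gray Boy, 0.443 FPKM in Luna and 0.851 FPKM in SPF2. Its ratio of 4.77 between Gray Boy and Luna was wider than that of DDX58, and a ratio this wide between the highest and the lowest line was found for 13.8% of the 1398 genes of like level. On the fragment steps the DHX58 values came within 1.90% of 16 to 3 to 8, close to the limit of 2%. Whole numbers this large meet that limit easily, so the fragments behind the DHX58 ratio remain unknown. IRF5, an interferon regulatory factor, had 4.23, 2.33 and 3.10 FPKM in Gray Boy, Luna and SPF2. TMEM173, which encodes the DNA-sensing adaptor STING, was low in all lines. It was at 0.294 FPKM in Gray Boy, 0.162 FPKM in Luna and 0.308 FPKM in SPF2, or 6 to 3 to 8 in steps. Multiples of these steps would give the same TMEM173 values, so the fragments behind them are unknown too. ZBP1, a sensor of Z-form nucleic acids, was listed at 0 FPKM throughout.

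**Figure D3:**
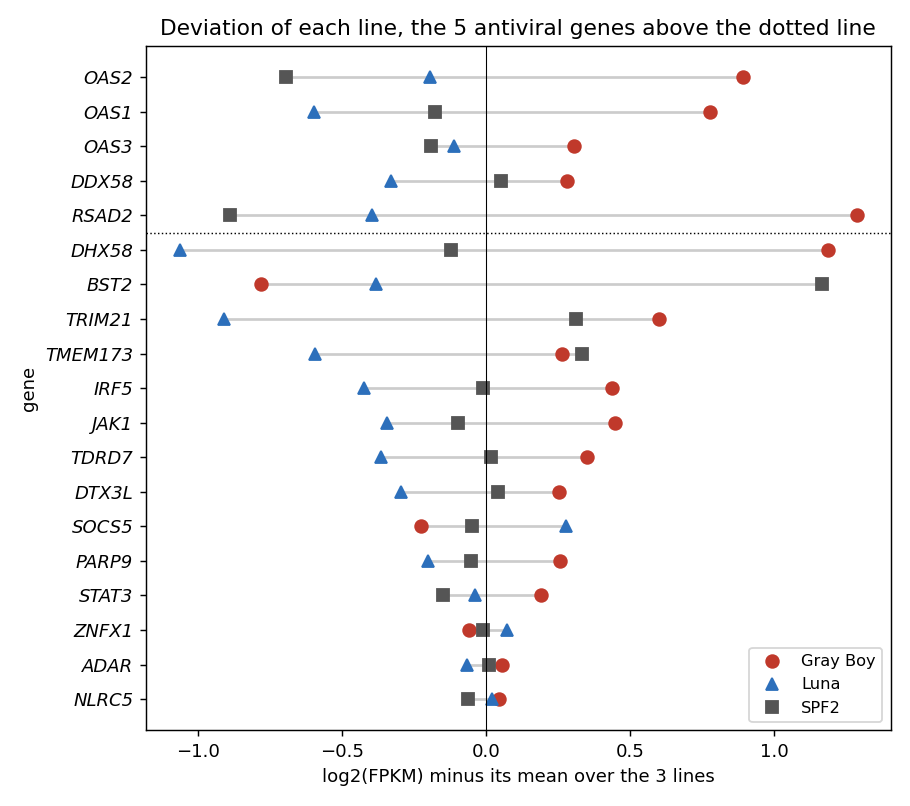
Log2(FPKM) of each line minus the mean of the 3 lines, for the 5 antiviral genes (above the dotted line) and the 14 other interferon system genes above 0 FPKM in every line, the 14 sorted by their span from lowest to highest line. Gray Boy is the rightmost point for all 5 and for 10 of the 14, BST2 and TMEM173 are highest in SPF2 and SOCS5 and ZNFX1 in Luna, and the points of ADAR, ZNFX1 and NLRC5 nearly coincide.

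Of the antiviral effectors, TRIM21, a cytosolic antibody receptor, had 4.90 FPKM in Gray Boy, 1.72 FPKM in Luna and 4.01 FPKM in SPF2, so that Luna alone was low. BST2, which encodes tetherin, had its lines in the reverse order of OAS2. It was at 0.440 FPKM in Gray Boy, 0.580 FPKM in Luna and 1.70 FPKM in SPF2, 3.86 times higher in SPF2 than in Gray Boy. PARP9 and DTX3L, whose proteins form a complex and whose genes are neighbors on chromosome C2, were close to each other in every line. PARP9 had 4.74, 3.45 and 3.83 FPKM and DTX3L 4.39, 3.00 and 3.79 FPKM in Gray Boy, Luna and SPF2. TDRD7, an interferon-induced inhibitor of autophagy, had 3.10, 1.89 and 2.46 FPKM in the same lines.

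Of the 7 listed effectors with an identifier, ADAR and ZNFX1 had the highest levels and hardly varied. ADAR, the enzyme that edits adenosine in double-stranded RNA and limits sensing of the cell's own RNA, had 60.0 FPKM in Gray Boy, 55.2 FPKM in Luna and 58.2 FPKM in SPF2. ZNFX1, a helicase that senses viral RNA, had 34.1, 37.4 and 35.3 FPKM. The highest line exceeded the lowest by 1.09 times for ADAR and 1.10 times for ZNFX1. Of the genes of like level, 84.6% had a ratio at least as wide as ADAR and 80.9% as ZNFX1. A high level did not go with evenness in OAS2, which had a mean of 16.7 FPKM and a ratio of 3.00. NLRC5, the activator of MHC class I genes, was lower but just as even, with 3.27 FPKM in Gray Boy, 3.21 FPKM in Luna and 3.03 FPKM in SPF2.

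Genes outside the interferon system had a like profile over the lines. The median centered log2 profile of the 4 members at 1 FPKM or more in every line was 0.54 in Gray Boy, -0.26 in Luna and -0.19 in SPF2. Outside the lists, the 5 genes with a symbol nearest to it, by Euclidean distance over the 3 lines, were CREBRF (0.069), CBR3 (0.096), HSPA12A (0.116), RGS7 (0.120) and ABLIM1 (0.129). CREBRF, a regulator of the CREB3 stress factor, had 4.07 FPKM in Gray Boy, 2.24 FPKM in Luna and 2.42 FPKM in SPF2. ABLIM1, an actin-binding protein gene, had 28.1, 17.6 and 16.7 FPKM. The members themselves lay at distances of 0.278 for OAS3, 0.360 for DDX58, 0.408 for OAS1 and 0.623 for OAS2 from their median profile. The 5 named genes were picked as the nearest of 1095, so their smaller distances say nothing about how closely the members moved together. In all, 34 genes were as near as ABLIM1 among the 10681 with at least 1 FPKM in each line.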

How the data were processed

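The FPKM values deposited by the authors came from reads aligned with HISAT to the cat assembly (ICGSC Felis Catus 8.0), Cufflinks quantification and scaling between libraries by Cuffnorm. Versions of these programs, the gene annotation and the scaling option of Cuffnorm were not given in the sources used here. FPKM values of genes whose loci overlap depend on how Cufflinks assigned their reads. The values are not counts, and they were used as deposited, with no pseudocount.

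Symbols were available for 1811 of the 21529 genes, through the part of the study's gene table used here. The members and gene lists were chosen with earlier results of these data known. Named genes were the 5 members, listed genes at 10 FPKM or more in a line or differing 2-fold, all ligand, receptor and sensor genes, and the 5 nearest profiles. PARP9, DTX3L, TDRD7 and NLRC5 and the neighboring genes on the chromosome were named after their values were seen. Genes of like level had a mean within 2-fold of that of the gene. Relative fragment worth was the commonest ratio, within 1%, over genes under 0.15 FPKM. Ratios were searched only in a window around equal worth, so a commoner ratio outside it would have been missed. The estimate of 1.40 for Luna over SPF2 lay near the upper end of that window. With a single condition and 1 library per line no test was made, and SD is over the 3 lines. Computations used Python 3.11.15, pandas 2.3.3 and numpy 2.4.6. Simulated lines were used to check the 2-fold calls, the nearest profiles, the median-ratio scaling and the highest line. The fragment worth and the fragment steps were not checked in this way. A planned promoter motif search and comparison of OAS proteins were not run, since no sequences were analysed here. Alternatives were other scalings, pseudocounts, filters and folds, and leaving out each line.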

Additional observations from a re-analysis of the deposited data

How the results depend on the processing

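All 5 antiviral genes were highest in Gray Boy with lines set to a total of 1000000 (TPM) and with quantile or median-ratio scaling. The number highest in the same line was 3 to 5 when each line was left out, with 3 (in Luna) when Gray Boy was left out. Without 1 line, the means ranged from 11.2 to 20.5 FPKM for OAS2, 2.40 to 4.03 for OAS1, 3.52 to 4.23 for OAS3, 6.12 to 7.52 for DDX58 and 0.084 to 0.207 for RSAD2, and the ratio of the highest to the lowest line ranged from 1.42 to 3.00 for OAS2, 1.34 to 2.58 for OAS1 and 1.41 to 4.52 for RSAD2, with the lowest value of each without Gray Boy. OAS1 was also under 2-fold without Luna, at 1.94. Pseudocounts of 1 and 0.1 FPKM lowered the RSAD2 ratio to 1.23 and 2.45, because they are large beside its level. TPM raised all 5 means, to 26.1 for OAS2, 5.28 for OAS1, 6.14 for OAS3, 10.5 for DDX58 and 0.253 for RSAD2, and turned the median log2 ratio of Luna over SPF2 from 0.08 to -0.03. With genes under 1 FPKM left out, the shares of all genes 2-fold or more higher were 3.78% for Gray Boy over Luna, 3.68% for Luna over Gray Boy, 1.84% for Gray Boy over SPF2, 1.13% for SPF2 over Gray Boy, 3.88% for Luna over SPF2 and 3.67% for SPF2 over Luna. The scalings and the filter to means of 1 to 30 FPKM for the share of all genes highest in a line were chosen after seeing the data, and that filter gave 30.5% for Gray Boy. No paired analysis was possible because the lines form a single group. Unknown fragment numbers limit the genes under 1 FPKM, RSAD2 among them.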
